A study of Mus musculus with 4 samples.

Results

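The genes examined were Mrtfb, Srf and 8 genes that SRF is known to control in other cells: the cytoplasmic actins Actb and Actg1, and Vcl, Tpm3, Tpm4, Cfl1, Myh9 and Flna. They are 10 of the 18193 genes named on the array, and were represented by 27 of its 34945 probe sets that the platform annotation ties to a single gene symbol. The set was built around Mrtfb, which was chosen by the difference between the groups at its brightest probe set. That difference is therefore given below as a description without a p, and where Mrtfb is counted among the called genes the count is no support for it. The questions asked of the set were whether SRF targets moved with Mrtfb and whether the probe sets of Mrtfb gave the same answer.

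MRTF proteins (MRTFA and MRTFB) are held in the cytoplasm by monomeric actin. When actin is assembled into filaments, the MRTFs are released, enter the nucleus and join the transcription factor SRF on a short A/T-rich sequence called the CArG box, in the promoters of actin and cytoskeletal genes. SRF works with a second family of partners, the ternary complex factors, at immediate-early genes such as Egr1, and it is needed for the positive selection of thymocytes.

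RNA came from CD4 single-positive thymocytes of B6 mice, sorted as CD25-, CD1d-PBS57- and gamma delta TCR-. Both groups carried floxed Cul3 (Cul3fl/fl), which encodes the scaffold of a family of ubiquitin ligases. The LM group was Cre-negative (CD4Cre-Cul3fl/fl) and the KO group carried the Cre transgene (CD4 Cre+Cul3fl/fl), which is driven by Cd4 regulatory elements. Each group had 2 arrays. The labels give neither the age of the mice nor whether different mice gave the 2 arrays of a group, so the p-values reflect sample-to-sample spread that may be only technical. No group carried Cre without floxed Cul3, so the effect of Cre and that of removing Cul3 cannot be told apart.

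The arrays resembled each other closely. Pearson correlations over the 11255 genes tested were 0.974 between the LM arrays, 0.964 between the KO arrays and 0.961 to 0.966 across groups. All 8 markers of CD4 single-positive T cells were above background, with a summed signal of 57361 and 60635 in LM against 60881 and 56701 in KO. Of 7 markers of double-positive or CD8 thymocytes, 6 were also above background on at least 2 arrays. Their list had a lower summed signal, 4603 and 5313 in LM against 5297 and 5653 in KO. The purity of the sorted cells was not tested. None of the 5 Cul3 probe sets was called, with KO minus LM differences of -0.15 to 0.31 on the log2 scale. The brightest read 5333 and 5724 in LM against 5380 and 5577 in KO, so the genotype rests on the labels. Where the probes lie relative to the floxed exons was not analysed here.

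Among the 9 members with a promoter in RefSeq's table for GRCm38.p6, 3 held an exact CArG box within 250 bases before to 50 bases after a transcription start (12 windows searched, both strands). Over the whole table, 535 of 32851 windows of 300 bases held one, or 1.63%. The 3 promoters are printed because they hold the kind of sequence that SRF is known to bind; the 250 bases before the start are given 5′ to 3′ on the gene's own strand, with the CArG boxes in capitals. Actg1 lies at chr11:120348496-120348745 on the minus strand, with the box at -90 to -81 from the start. Srf itself lies at chr17:46556163-46556412 on the minus strand and has 2 boxes, at -82 to -73 and at -62 to -53. Vcl lies at chr14:20929148-20929397 on the plus strand, with the box at -227 to -218.
Actg1: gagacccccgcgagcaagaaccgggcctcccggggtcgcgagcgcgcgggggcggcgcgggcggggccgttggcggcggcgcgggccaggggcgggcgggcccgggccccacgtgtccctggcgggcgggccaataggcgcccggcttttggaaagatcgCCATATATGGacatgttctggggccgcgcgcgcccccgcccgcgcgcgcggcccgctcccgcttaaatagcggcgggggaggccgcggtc
Srf: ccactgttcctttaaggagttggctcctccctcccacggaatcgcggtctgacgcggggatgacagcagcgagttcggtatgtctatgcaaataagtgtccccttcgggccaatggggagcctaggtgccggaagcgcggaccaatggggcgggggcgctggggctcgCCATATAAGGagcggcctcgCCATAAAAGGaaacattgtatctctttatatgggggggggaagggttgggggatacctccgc
Vcl: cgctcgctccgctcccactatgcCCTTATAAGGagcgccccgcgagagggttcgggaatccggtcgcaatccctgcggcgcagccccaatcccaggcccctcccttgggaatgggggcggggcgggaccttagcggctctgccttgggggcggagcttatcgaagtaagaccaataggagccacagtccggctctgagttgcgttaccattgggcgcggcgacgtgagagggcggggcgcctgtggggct
A match is a description of these letters and not a measured binding site. The windows at the 3 listed starts of Mrtfb held no exact match. Actb is the member without a promoter in the table, so its promoter was not searched.

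Mrtfb, the cofactor, was measured by 3 probe sets, and they disagreed. The signal of 1445134_at was 423 and 437 in LM against 893 and 1025 in KO. The signal of 1428028_at was 528 and 407 in LM against 493 and 408 in KO. The signal of 1435547_at was 467 and 453 in LM against 415 and 379 in KO. Only the first set was higher in the KO group, and both of its KO arrays lay above both of its LM arrays. The groups overlapped at 1428028_at, and at 1435547_at both KO arrays lay just below both LM arrays. All 3 sets were above background on all 4 arrays, so the disagreement is not between a detected and an undetected set.

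**Figure D1:**
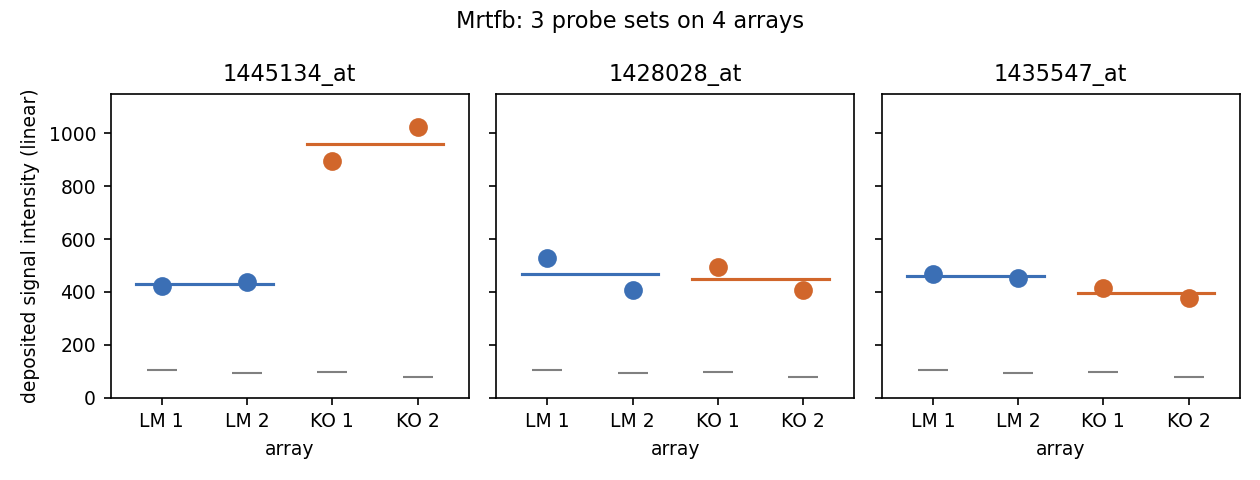
Deposited signal of the 3 Mrtfb probe sets on each of the 4 arrays (linear axis from 0; points are single arrays, long lines the group means, and short grey lines the background of each array). At 1445134_at the KO arrays read 893 and 1025 against 423 and 437 for LM, while the other sets stay between 379 and 528 on every array.

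On the log2 scale after quantile normalization, 1445134_at was 8.80 ± 0.09 (SD, n = 2) in LM and 9.94 ± 0.14 in KO, a difference of 1.14 ± 0.20 (SE), or 2.20-fold. The same difference, KO minus LM, was -0.05 ± 0.23 at 1428028_at and -0.21 ± 0.23 at 1435547_at. On the LM arrays the 3 sets had similar signals, and on the KO arrays 1445134_at stood apart. The log2 gap between 1445134_at and 1428028_at was -0.32 and 0.10 in LM against 0.84 and 1.32 in KO. The gap to 1435547_at was -0.15 and -0.05 in LM against 1.08 and 1.42 in KO.

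These gaps changed between the groups by 1.19 ± 0.33 and 1.35 ± 0.31 on the log2 scale. They were fitted together with every other pair formed by a gene's brightest probe set and one of its other tested sets. They are given without a p or a rank, because Mrtfb was selected on one side of each gap. Over all 10520 pairs, 3 were called by limma at an adjusted p of 0.05 (0.0285%). None of the 11 pairs of the other members was called, with the smallest limma adjusted p at 0.962.

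Which probe set stood for Mrtfb depended on which arrays were used to choose it. The brightest set over the KO arrays was 1445134_at, with a difference of 1.14, whereas the brightest over the LM arrays was 1428028_at, with -0.05. Of the 31 genes called over the whole table, Mrtfb was the 1 gene for which the LM arrays picked another probe set. The other 30 kept the same probe set, so their being called again with the LM choice was no separate check of them. Different choices were not rare in general: they occurred in 583 of 11255 tested genes, of which 5708 had at least 2 tested sets. Of the 18 called genes with at least 2 tested sets, 15 had the same sign at every set. The 3 with an opposite sign at some set were Mrtfb, Edaradd and Ptges3l, the last pair named after their values were seen. Agreement in size was less common than agreement in sign. In 5 of the 18, Mrtfb among them, 0 other sets reached 50% of the brightest set's log2 difference in the same direction. With the mean of all 3 probe sets in place of the brightest, the Mrtfb difference was 0.29 ± 0.16.

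RefSeq lists 3 transcription starts for Mrtfb, the first and the last 101940 bases apart. Which transcripts each probe set reads was not analysed here.

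**Figure D2:**
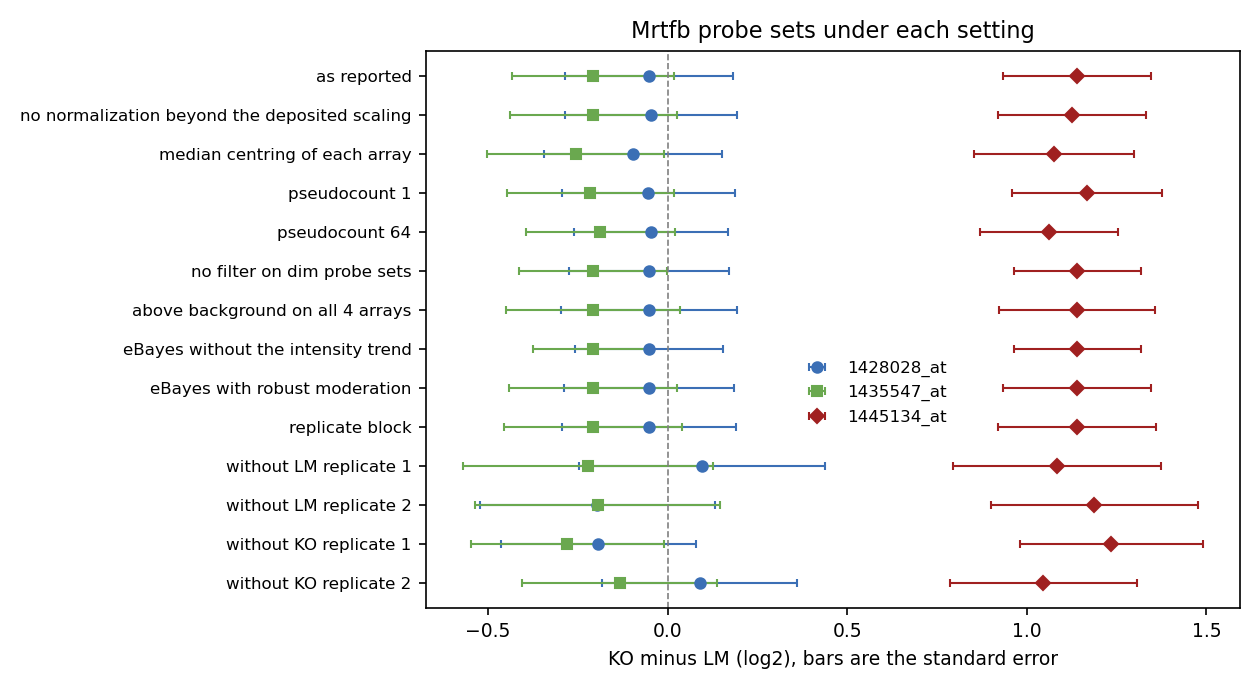
KO minus LM difference of each Mrtfb probe set, log2, under each processing setting and with each array left out; bars are the standard error from limma. The 1445134_at values run from 1.05 to 1.23, and those of the other sets from -0.28 to 0.10.

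Srf, the transcription factor, showed no such difference. Its tested probe set, 1418255_s_at, read 1623 and 1794 in LM against 1656 and 1610 in KO. The groups overlapped, and the difference was -0.05 ± 0.15 (limma adjusted p = 0.968), with a 95% interval that places KO between 76.7% and 121% of LM. The other Srf set, 1418256_at, read 72.2, 45.5, 134 and 22.8 on LM 1, LM 2, KO 1 and KO 2, was above background on fewer than 2 arrays and was not tested. The Srf promoter, with 2 CArG boxes, is a known target of SRF itself.

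Actb was the brightest member, while Actg1 was dimmer than Cfl1 and Myh9 on every array. Actb, beta-actin, read 24908 and 27339 in LM against 25566 and 24786 in KO at 1419734_at. Its difference was -0.05 ± 0.05 (limma adjusted p = 0.847), with KO at 90.0% to 103% of LM. The deposited signals overlapped; after quantile normalization both LM arrays held the same value, just above both KO arrays, and without that normalization the difference was also -0.05. The second tested set, 1436722_a_at, gave -0.05 as well. Across the 3 Actb control sets, which stayed out of the fit, signals ran from 16129 to 20192 on the LM arrays and from 15954 to 20103 on the KO arrays. Their 3′ to 5′ ratio was 0.908 and 0.961 in LM and 0.891 and 0.989 in KO. The same ratio for the Gapdh control sets was farther from 1, at 2.63 and 2.93 in LM and 2.59 and 2.70 in KO.

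Actg1, gamma-actin, read 10033 and 11062 in LM against 10576 and 10311 in KO. Both KO arrays fell between the LM arrays. The difference was -0.00 ± 0.07 (limma adjusted p = 0.997), and the interval places KO between 89.8% and 111% of LM. Its printed promoter has a CArG box at -90 to -81 from the start.

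**Figure D3:**
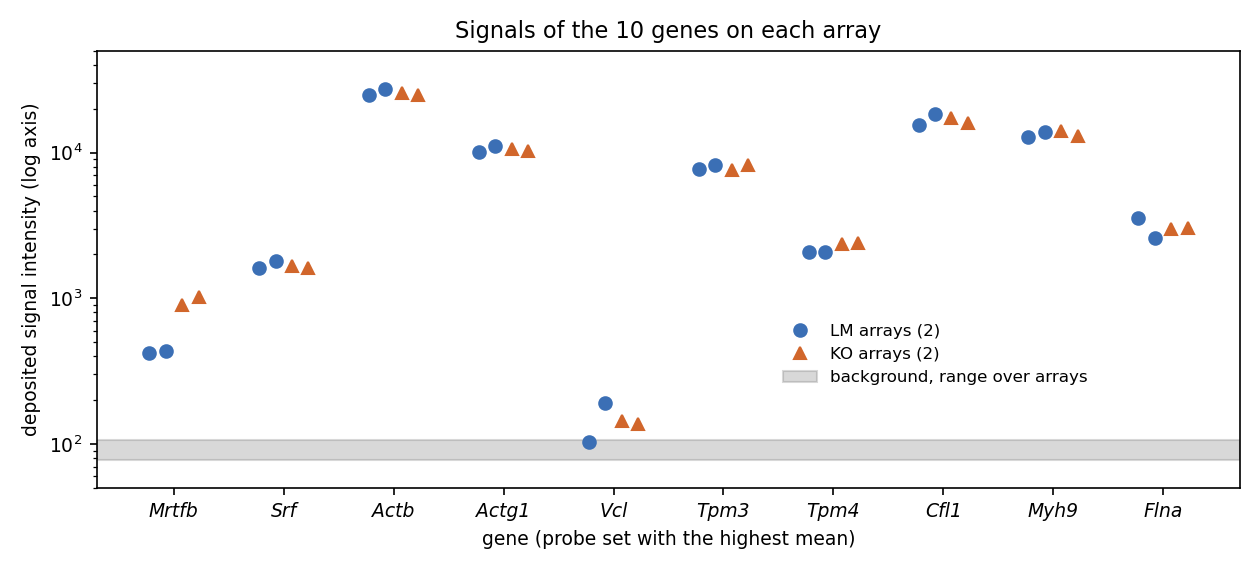
Deposited signal of the brightest probe set of each of the 10 genes on each array (log axis; circles are single LM arrays and triangles single KO arrays; the grey band is the range of the per-array background signal). Mrtfb is the member whose groups are far apart, and Vcl lies close to the background.

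Cfl1, cofilin, which severs actin filaments, read 15579 and 18321 in LM against 17220 and 15929 in KO at 1455138_x_at. The groups overlapped. The difference was -0.05 ± 0.06 (limma adjusted p = 0.880), with KO at 88.1% to 105% of LM, and the second set, 1448346_at, gave a difference of the same size.

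Myh9 encodes the heavy chain of non-muscle myosin IIA, the motor that pulls on actin filaments. Its brightest set read 12890 and 13862 in LM against 13991 and 13002 in KO, and the groups overlapped. The difference was 0.01 ± 0.06 (limma adjusted p = 0.994), with KO at 91.4% to 110% of LM. Of its other 4 sets, 3 lay between -0.07 and 0.06. The last, 1440708_at, read 1436 and 1102 in LM against 855 and 1053 in KO. Its groups did not overlap, but its difference of -0.39 ± 0.20 did not pass the test (limma adjusted p = 0.669).

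Tropomyosins coat and stabilise actin filaments. Tpm3 read 7658 and 8274 in LM against 7624 and 8247 in KO at its brightest set. Each KO array had an LM array of nearly the same signal, and the difference was -0.00 ± 0.09 (limma adjusted p = 0.997), with KO at 87.6% to 113% of LM. Among its other 4 sets, 3 lay between -0.07 and 0.10. The set 1436958_x_at gave -0.43 ± 0.20 (limma adjusted p = 0.624), from 3696 and 4665 in LM against 4051 and 2319 in KO, so that the low value came from 1 KO array.

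Tpm4 read 2071 and 2085 in LM against 2359 and 2381 in KO at its only probe set. Both KO arrays lay above both LM arrays. The difference of 0.18 ± 0.13 was the largest of the 9 genes beside Mrtfb and did not pass the test (limma adjusted p = 0.807); the interval places KO between 92.7% and 139% of LM.

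Flna, filamin A, which crosslinks actin filaments, read 3547 and 2597 in LM against 2973 and 3029 in KO. The KO arrays lay between the LM arrays, with a difference of -0.01 ± 0.16 (limma adjusted p = 0.997) and KO at 78.5% to 126% of LM.

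Vcl, vinculin, which links adhesion sites to actin, was dim. Its brightest set read 104 and 191 in LM against 143 and 137 in KO, against background signals of 77.7 to 106, and was above background on 1 LM and 2 KO arrays after normalization. The difference was -0.06 ± 0.39 (limma adjusted p = 0.992). The interval places KO between 52.9% and 173% of LM, so a change of moderate size in either direction was not detectable for this gene.

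Of the 10 members, 1 passed the gene-level test, Mrtfb, against a background of 0.275% of all tested genes in either direction and 0.133% higher in KO, and nothing is read from that because Mrtfb was chosen by this contrast. None of the other 9 passed. At the level of probe sets, 0 of the 20 tested sets of those 9 genes were called, against 0.229% of all tested sets, a share under which 0 calls among 20 says little. At an unadjusted p under 0.05, limma also found 0 of the 9 genes and 0 of the 20 sets, against 945 of 11255 genes and 1737 of 21795 sets in all.

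The differences of these 9 genes ran from -0.06 to 0.18, with 2 higher, 7 lower and a median of -0.01, against a median of 0.00 over all tested genes. All 9 lay within 0.25 of 0 on the log2 scale, as did 65.7% of all tested genes. Among their 20 tested probe sets, 18 (90.0%) lay within that range, against 64.3% of all tested sets. LM and KO arrays did not overlap in 2 of the 9 genes, Tpm4 and Actb, against 37.4% of all tested genes. Of the 9, all but Vcl had a standard error below the median of 0.22 over all tested genes, so the shares within 0.25 compare genes measured with unequal precision. In bulk RNA, fewer cells of a type and less RNA per cell cannot be told apart.

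**Figure D4:**
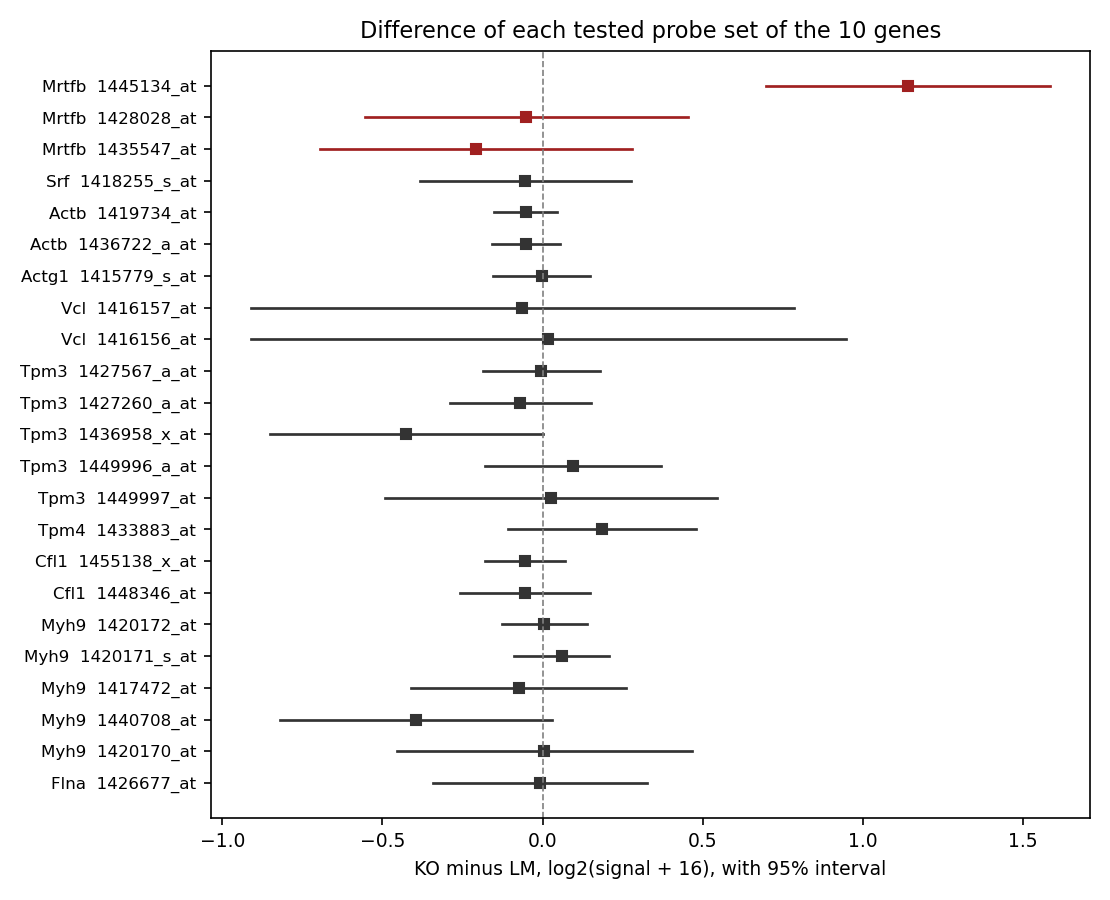
KO minus LM difference (log2) of each of the 23 tested probe sets of the 10 genes, with its 95% interval from limma. The sets of the 9 genes beside Mrtfb lie from -0.43 to 0.18, and 1445134_at of Mrtfb stands at 1.14 while its other sets lie at -0.05 and -0.21.

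Other SRF partners were described from a list of 10 genes, of which 9 were tested. Of these, 6 were higher and 3 lower in KO, and Mrtfb was the one called. Mrtfa, the close relative of Mrtfb, read 1267 and 833 in LM against 1073 and 1230 in KO, with overlapping groups and a difference of 0.16 (limma adjusted p = 0.909) that ran from -0.13 to 0.46 with 1 array left out. The ternary complex factors gave -0.16 for Elk4 (0.677), 0.26 for Elk1 (0.838) and 0.13 for Elk3 (0.879), with the limma adjusted p in parentheses.

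A wider list of 43 known MRTF-SRF cytoskeletal targets had 33 tested genes, the 9 members among them. None was called, 17 were higher and 16 lower, and the median difference was 0.01. At an unadjusted p under 0.05 there were 3 higher and 2 lower among the 33, beside 945 of the 11255 genes tested in all. The groups did not overlap in 13 (39.4%), near the 37.4% of all tested genes. The listed targets thus lay on both sides of 0 in nearly equal number, within a range of -2.05 to 1.20.

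The targets with the smallest p did not share a direction. Zyx, zyxin, an adhesion protein, read 1100 and 1083 in LM against 1613 and 1597 in KO. Its arrays within a group were close, and its groups did not overlap. The difference of 0.56 ± 0.16 did not pass (limma adjusted p = 0.288), and it was 0.10 with the mean of its probe sets. That mean, here and below, takes in every probe set of a gene, whether above background or not.

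Itga5, an integrin chain, read 335 and 428 in LM against 30.2 and 190 in KO. The KO values were lower and far apart, with 1 of them above background, and the difference of -2.05 ± 0.54 did not pass (limma adjusted p = 0.221). It passed under 4 of the alternatives, and another probe set, the brightest over the KO arrays, gave 0.69. Vim, the intermediate filament protein vimentin, gave -0.21 (limma adjusted p = 0.427).

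Tagln, an actin-binding protein best known from smooth muscle, read 64.3 and 84.5 in LM, not above background, against 163 and 203 in KO. With the LM group set at the background of each array, or at its own signal if higher, Tagln was 1.70-fold higher in KO. That value carries no sampling error. Without this replacement the difference was 1.08 ± 0.39, and the limma interval places KO between 117% and 382% of LM. Tagln did not pass (limma adjusted p = 0.429). Tagln is also on the list of 6 smooth muscle markers, of which 3 were above background. Their summed signal was 596 to 664 on the LM arrays and 525 to 838 on the KO arrays. Of the other 5 markers, Acta2 (212 and 194 in LM against 174 and 350 in KO) and Myh11 (298 and 293 against 150 and 249) were above background on all 4 arrays, and Cnn1, Des and Myl9 on 0 arrays. Their part in the Tagln value was not tested.

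The immediate-early targets that SRF shares with the ternary complex factors were also without a call: 12 of 13 were tested, 4 higher and 8 lower, with a median of -0.06. Egr1 read 5854 and 5969 in LM against 4692 and 4930 in KO. Both KO arrays were lower, and the difference of -0.29 ± 0.10 did not pass (limma adjusted p = 0.394). Fos gave -1.15 (limma adjusted p = 0.703), from 141 and 157 in LM against 19.0 and 159 in KO. The low value came from 1 KO array: the difference was -0.0026 without KO replicate 1 and -2.29 without KO replicate 2. Egr3 gave -0.27 (limma adjusted p = 0.834) and Egr2 -0.10 (0.879). With the mean of all its probe sets, whether above background or not, Egr3 turned to 0.55.

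**Figure D5:**
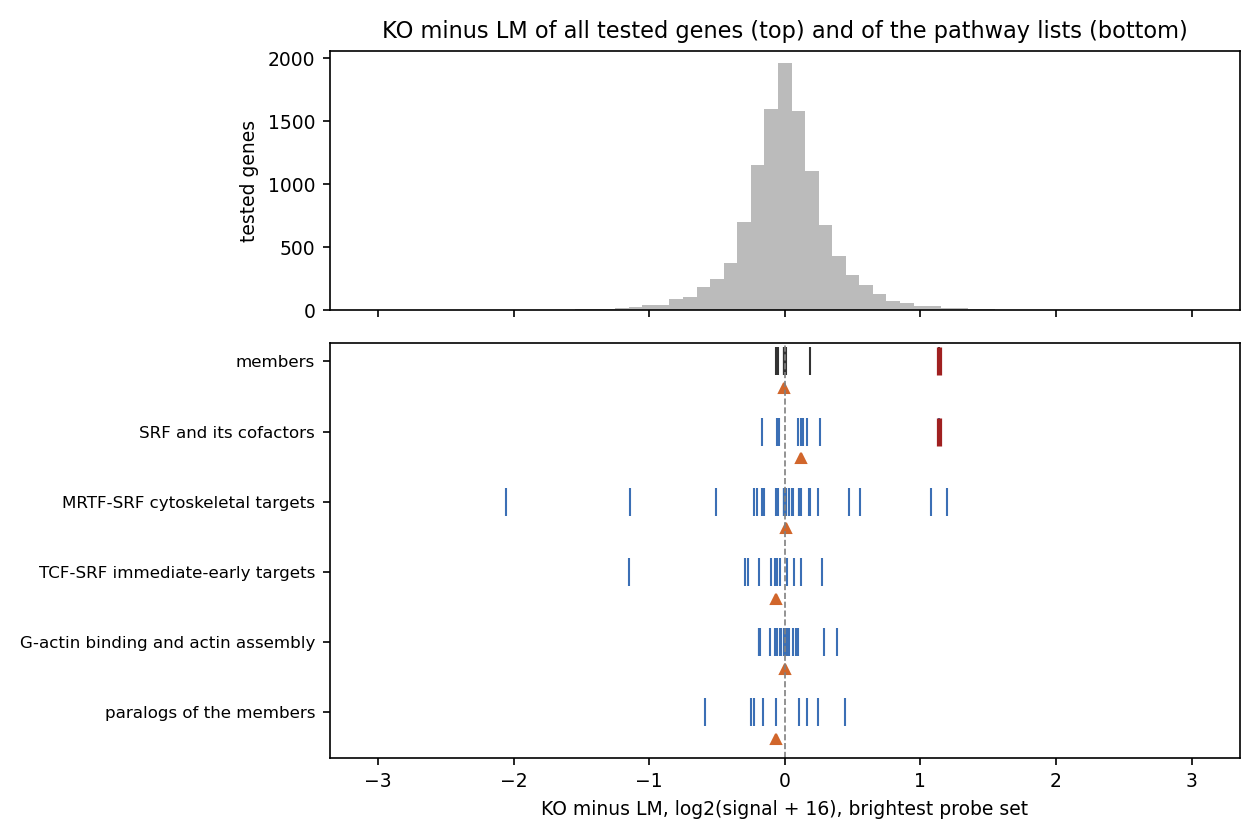
KO minus LM difference (log2) of all tested genes as a histogram (top) and of the tested genes of each list (bottom), with a tick per gene and a triangle at the list's median. Each list spreads on both sides of 0, with medians from -0.06 for the paralogs of the members to 0.12 for SRF and its cofactors, and Mrtfb, in red, is the one called gene.

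The proteins that bind monomeric actin or build filaments gave 11 higher and 10 lower among 21 tested genes, with none called and a median of 0.00. Coro1a, the coronin of lymphocytes, gave -0.19 ± 0.06 (limma adjusted p = 0.369). Tmod3, a cap of the slow filament end, gave 0.38 (limma adjusted p = 0.551), but -0.11 with the mean of its probe sets and -0.07 with the set brightest over the LM arrays. Gsn, gelsolin, gave 0.29 (limma adjusted p = 0.578), and Capza2, a cap of the fast end, -0.18 (0.809). Among 9 tested paralogs of the members, 4 were higher, 5 lower and 0 called. Ctnna1, which resembles vinculin, gave 0.44 (limma adjusted p = 0.537), Myh11 -0.58 (0.664), and Tpm1 -0.23 (0.790), or 0.07 with the mean of its probe sets.

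Genes with a CArG box near a start were examined as a group chosen by sequence and not by any list. Of 143 such tested genes, 80 were higher, 63 lower and 0 called, with a median difference of 0.02. At an unadjusted p under 0.05 there were 15, or 10.5%, against 8.29% of the 9153 tested genes with a promoter in the table, of which 10 were called higher and 12 lower. Among the listed MRTF-SRF targets, 10 of the 37 with a promoter held a CArG box, and 7 of these were tested. They were Actg1, Srf and Vcl, whose promoters are printed above, with Cnn2, Fhl2 and Filip1l (0.11 to 0.12) and Lima1 (-1.14, limma adjusted p = 0.628). The groups overlapped at Lima1, which read 367 and 268 in LM against 307 and 56.9 in KO, so that its low value came from 1 KO array. Their median was -0.00, with 3 higher and 4 lower.

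The genes whose profile over the 4 arrays was nearest to that of 1445134_at were not members. The distances use the same values by which Mrtfb was chosen. A gene with a difference near 0 is far from this profile by construction, so the ranks below only restate the differences above. Distances from the other Mrtfb probe sets were not computed. After centring each profile on its mean, the nearest of 11254 genes by Euclidean distance on the log2 scale were Plekhf1 at 0.0888, Nrn1 at 0.0986, Abcb1b at 0.133, Marchf9 at 0.149 and Coa4 at 0.150. None of these genes passed the test, with limma adjusted p from 0.202 for Nrn1 to 0.427 for Plekhf1 and Coa4. In LM, Plekhf1 (72.3 and 76.6) and Coa4 (62.8 and 74.4) were above background on 0 arrays and Marchf9 on 1. In KO these genes were above background on 2 arrays. Nrn1 and Abcb1b were above background on all LM and KO arrays. Of the 9 members, the nearest was Tpm4, at rank 1893, and the others ranked from 4600 to 8010. The arrays read RNA, while MRTF is known to be controlled largely by where the protein is in the cell, which was not measured here.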

How the data were processed

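The values that the authors deposited are linear intensities, 1 for each probe set on each array. They span 0.1 to 43129 and were scaled so that each array's mean after trimming 2% at each end was 500.0. The labels' protocols give Trizol extraction and WT-Ovation Pico amplification; the summarising program is not given in the sources used here. The array's 45101 probe sets include 64 controls, which stayed out of the fits, and 932 with several symbols and 9160 with none were not named. Intensities were taken as log2(signal + 16), which understates changes of dim genes, and quantile normalized. Background on each array was the 95th percentile over 80 probe sets of olfactory or vomeronasal receptors. A gene stood by its brightest probe set over the 4 arrays, and was tested if above background on at least 2 arrays.

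The KO minus LM contrast used limma 3.58.1 under R 4.3.3 (lmFit, eBayes with an intensity trend; 2 residual and 9.96 prior degrees of freedom), over 11255 genes, 21795 probe sets and 10520 probe set pairs. P-values are two-sided and Benjamini-Hochberg adjusted over each whole table, at a threshold of 0.05. The median standard error was 0.22, and the number of arrays limits the precision. Members, lists and rules were chosen with earlier results of these data known. Named genes were all members, every called gene and up to 4 of each list with the smallest p, the 5 nearest to Mrtfb, and members' promoters with a CArG box. Some listed genes are not reported here. Others are said to be chosen after their values were seen. The CArG box was searched by script as an exact match to its consensus. Scripts were tested on simulated data. Tables used Python 3.11.15 with pandas 2.3.3, and plots matplotlib 3.10.9. Alternatives changed the normalization, pseudocount (1 or 64), filter, eBayes, probe set choice, replicate block and arrays included. The mean of probe sets took in every set of a gene, also sets below background such as 1418256_at of Srf.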

Additional observations from a re-analysis of the deposited data

How the results depend on the processing

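Precision is limited by 2 arrays per group. Mrtfb was chosen by its own difference, so settings that keep it past the threshold are no support. It was not past the threshold without a filter, without the eBayes trend, with the mean of probe sets (0.29) or without KO replicate 2 (1.05). The cause was not tested. Choosing probe sets on LM or KO arrays was added after seeing the data; with the LM choice Mrtfb was -0.0516 and Tmod3 -0.0722, and with the KO choice Itga5 was 0.69.

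Called genes numbered 31. They were 81 with median centring, 0 without a filter (1247 of 18193 at an unadjusted p under 0.05), 0 without the eBayes trend (922 of 11255), 43 above background on all 4 arrays and 46 without normalization, and 40 to 98 with 1 array left out, the 98 without LM replicate 2; without either LM array limma's prior degrees of freedom were infinite. Called probe sets numbered 50: 98 with median centring, 2 without a filter, 77 above background on all 4 arrays, 0 without the trend (1679 at an unadjusted p under 0.05), and 120 to 241 with 1 array left out. Called pairs numbered 3: 5 above background on all 4 arrays, 0 without the trend (558 at an unadjusted p under 0.05), 6 with the replicate block, and 6 to 7 with 1 array left out.

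The median over the 9 members beside Mrtfb was -0.01; it was -0.0658 with median centring, which moved the median of all genes to -0.05, -0.0387 with the mean of probe sets, and -0.0319 to 0.00622 with 1 array left out. Over 11255 genes, the replicate 1 minus replicate 2 difference in LM and that in KO had a correlation of -0.02. This cannot settle whether the arrays were paired by replicate number, because it also reflects the noise of each gene. With the replicate block 43 genes were called. In this balanced design the block cannot change a difference, only its error.

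With 1 array left out, signs turned for Actg1 (-0.0213 to 0.0162), Flna (-0.25 to 0.24), Mrtfa (-0.13 to 0.46), 1428028_at of Mrtfb (-0.20 to 0.10), Myh9 (-0.0119 to 0.0176), Srf (-0.120 to 0.0116), Tpm3 (-0.0873 to 0.0762) and Vcl (-0.51 to 0.38). With the mean of probe sets they turned for Egr3 (0.55), Myh9 (-0.0796), Tmod3 (-0.11) and Tpm1 (0.0693), and with median centring for Myh9 (-0.0368). None of these was past the threshold.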
